A study of Homo sapiens with 3 samples.

Results

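The genes described here are 10 from the canonical Wnt pathway. CSNK1A1, GSK3B, AXIN1, AXIN2, APC, CTNNB1, TCF7, LEF1 and PYGO2 were taken around casein kinase 1α (CK1α), and KREMEN2 was added by name. All 10 were chosen as a list of names, with earlier results of these data known. They were found by Entrez identifier among the 25702 genes of the count files. The RNA came from Molm13 cells, an established line of human acute myeloid leukemia with an internal tandem duplication in the FLT3 receptor gene. The cells were exposed for 6 h to DMSO, the vehicle, to 50 nM pyrvinium, or to 100 nM pyrvinium, an anthelmintic cation given as its pamoate salt. There was 1 library per condition, so the spread between replicates is unknown, and a test on the reads compares those libraries and not the conditions. The counts summed to 22677038 to 24075123 per library, and 12879 genes had at least 10 counts in at least 1 library and were tested.

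In the canonical pathway, cytosolic β-catenin is held low by a destruction complex. AXIN and APC are its scaffolds, CK1α places the priming phosphate on β-catenin, and GSK3 adds the phosphates that mark it for ubiquitination. A Wnt ligand that binds a Frizzled receptor and LRP5 or LRP6 switches the complex off, and β-catenin then enters the nucleus, where it binds TCF/LEF proteins together with BCL9 and Pygopus. Kremen proteins are cell surface receptors that, with Dickkopf proteins, remove LRP6 from the membrane. Pyrvinium has been described as an allosteric activator of CK1α in other cells. Such an activation acts on the protein, and RNA counts show neither kinase activity nor the amount of β-catenin protein. From immunoblots of GSK3β and β-catenin in Molm13 cells, the study reported that pyrvinium did not inhibit the Wnt pathway.

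The markers of the labelled cell type were present. Of 12 myeloid markers, 11 reached 1 TPM (reads per base of gene length, scaled to the same sum in each library) in every library, and CD14 was the exception with 1 to 2 counts. Of 12 T cell markers, CD3E, CD2, CD5, CD8B and TRAT1 had 0 counts in all 3 libraries, and CD3D had 13 to 26. CD4, which myeloid cells also express, had 780 to 809. CD247 had 126 counts with DMSO, 141 with 50 nM and 79 with 100 nM and was lower at 100 nM, with a log2 fold change of -0.73, and CD28 had 1, 4 and 17 counts and was called higher there at 2-fold. The summed level of the list was 25.8, 27.2 and 22.2 TPM, and its part in the results was not tested. The 50 nM library alone held 16 counts of HBB, 4 of HBA2 and 6 of PAX5, and the origin of these few reads was not tested.

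Which of the 10 genes do Molm13 cells express? The core components CSNK1A1, CTNNB1, PYGO2, AXIN1, GSK3B and APC were above 1 TPM in all libraries, whereas KREMEN2 and AXIN2 were low and LEF1 and TCF7 were practically without reads. The mean level over the 3 libraries was 121 TPM for CSNK1A1 and 96.4 TPM for CTNNB1. It was 21.9 TPM for PYGO2, 21.5 TPM for AXIN1, 18.5 TPM for GSK3B and 8.33 TPM for APC. KREMEN2 followed with a mean level of 1.29 TPM and AXIN2 with 0.178 TPM. PYGO2 and AXIN1 changed places in this order between libraries, and the other neighbours kept their places in all libraries, apart from the pair with almost no reads. In the plot of levels by library, the points of a gene lie close together for the 6 core components above 1 TPM and apart for KREMEN2 and AXIN2.

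**Figure D1:**
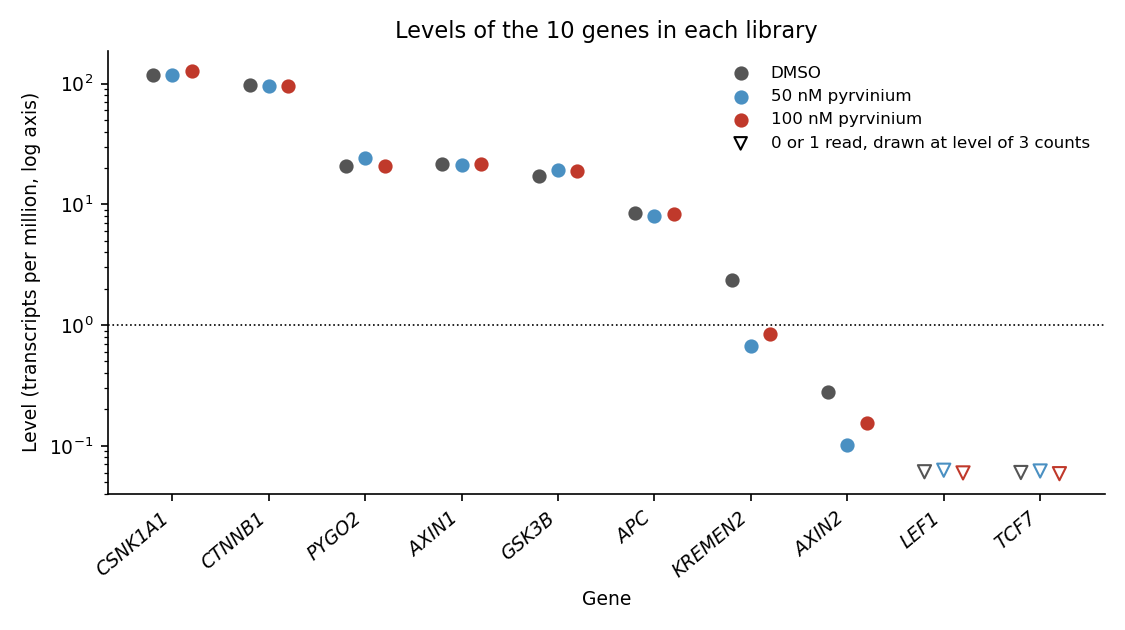
Level of each of the 10 genes in TPM (log axis) in the DMSO, 50 nM and 100 nM libraries, 1 point per library. The dotted line marks 1 TPM. Open triangles stand for LEF1 and TCF7, with 0 or 1 read, at the level that 3 counts would have. CSNK1A1 lies at 118 to 128 TPM, and KREMEN2 falls from 2.37 TPM in DMSO to 0.672 and 0.838 TPM.

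Of the 10 genes, 8 passed the count filter. Between the 100 nM and the DMSO library, 1 of the 8, KREMEN2, differed at least 2-fold with an adjusted p of at most 0.05 in the exact binomial test, against 2.2% of all genes tested. Between 50 nM and DMSO it was again KREMEN2 alone, against 0.955% of all genes, and these comparisons share the DMSO library. Between 100 nM and 50 nM none of the 8 passed, against 0.497% of all genes. With a threshold of 1.5-fold KREMEN2 was again alone at both doses, against 6.71% of all genes at 100 nM and 2.58% at 50 nM, and none passed between the doses, against 1.11%. With no fold threshold, 2 of the 8 passed at 100 nM (43.1% of all genes), 3 at 50 nM (28.2%) and 2 between the doses (16.9%). KREMEN2 was added to the list with earlier results of these data known. Counts that include it therefore describe these libraries and are no test of the list against all genes. The values of the 8 genes are drawn with their counting intervals in the plot of differences between libraries.

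**Figure D2:**
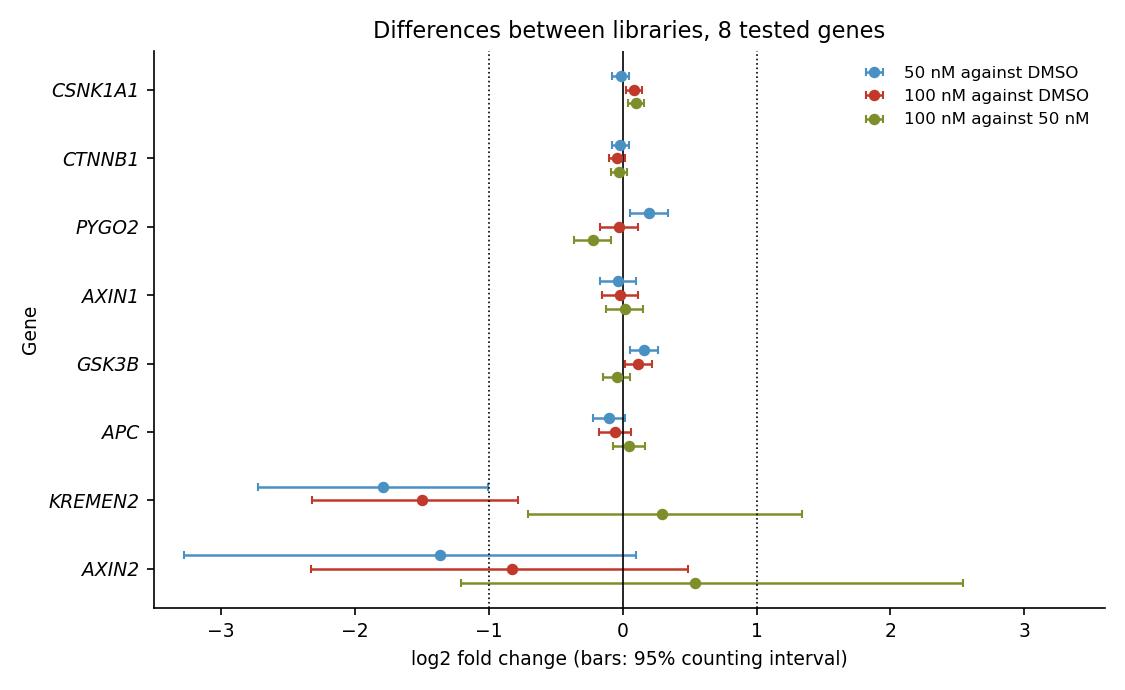
Log2 fold change of the 8 tested genes for 50 nM against DMSO, 100 nM against DMSO and 100 nM against 50 nM, with 95% Clopper-Pearson intervals of the count ratio, which cover counting error only. Dotted lines mark 2-fold. The 6 core components lie between -0.22 and 0.20 in every comparison, and both KREMEN2 values against DMSO lie below -1.

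CSNK1A1 encodes CK1α, the proposed target of the drug (Entrez 1452, chromosome 5 of hg19 from 148874845 to 148931007, minus strand). Its counts were 4442 with DMSO, 4292 with 50 nM and 4902 with 100 nM pyrvinium, so that the 100 nM library was the highest and the other libraries were close. The log2 fold change was -0.02 at the lower dose (interval -0.08 to 0.05) and 0.09 at the higher (interval 0.03 to 0.14). The latter is a 6.08% higher value, with an adjusted p of 0.0127 in the exact binomial test. From 50 nM to 100 nM the log2 fold change was 0.10 (interval 0.04 to 0.16; exact binomial test, adjusted p = 0.00859). Of the 5600 genes counted at least as deeply as PYGO2, 61.2% passed the same adjusted p at 100 nM. With a biological coefficient of variation of 0.1 assumed in edgeR's exact test, which stands in for a spread between replicates and is called the coefficient from here on, the adjusted p of CSNK1A1 at 100 nM was 0.968.

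Within the casein kinase 1 family, CSNK1A1 took 33.7% of the summed level (in TPM) of 7 genes in DMSO, 35.3% at 50 nM and 35.8% at 100 nM. CSNK1D and CSNK1E, which encode the δ and ε isoforms that act on Dishevelled and on the circadian clock, had mean levels of 67.2 and 51.6 TPM. The γ isoforms, which are anchored at the membrane and phosphorylate LRP6, had mean levels of 82.6 TPM for CSNK1G2, 16.6 TPM for CSNK1G3 and 7.93 TPM for CSNK1G1. CSNK1A1L, an intronless copy of CSNK1A1, had 3 to 6 counts, and reads shared by the copies are uncertain. At 100 nM, CSNK1D was higher with a log2 fold change of 0.14 and CSNK1G2 lower with one of -0.23, both past the adjusted p and both below 2-fold. None of the family passed against DMSO with a coefficient of 0.1. CSNK1E, CSNK1G1 and CSNK1G3 did not pass, with log2 fold changes of -0.05, 0.01 and 0.05.

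GSK3B encodes the kinase that follows CK1α on β-catenin (Entrez 2932, chromosome 3 from 119540800 to 119813264, minus strand). Its counts were 1458 in DMSO, 1592 at 50 nM and 1645 at 100 nM, with DMSO the lowest. The log2 fold change was 0.16 at 50 nM (interval 0.06 to 0.26; exact binomial test, adjusted p = 0.0107). At 100 nM it was 0.12 (interval 0.01 to 0.22), with an adjusted p of 0.0569 in the exact binomial test. Neither GSK3B nor its paralog GSK3A passed with a coefficient of 0.1. Its paralog GSK3A, which acts on the same sites, was the more abundant gene of the pair at a mean of 102 TPM. GSK3A fell at 100 nM by 0.22 on the log2 scale (exact binomial test, adjusted p = 1.93e-07). GSK3B took 13.6%, 16.0% and 16.5% of the summed level of the pair in DMSO, 50 nM and 100 nM.

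The scaffold gene AXIN1 (Entrez 8312, chromosome 16 from 337440 to 402464, minus strand) had 889 counts in DMSO, 848 at 50 nM and 913 at 100 nM. Its changes on the log2 scale were -0.03 at 50 nM (interval -0.17 to 0.10) and -0.02 at 100 nM (interval -0.15 to 0.12), with neither past the adjusted p. AXIN1 held 98.7% to 99.5% of the summed level of AXIN1 and AXIN2. APC (Entrez 324, chromosome 5 from 112043218 to 112181936, plus strand) had 1144, 1041 and 1147 counts in the same order. The counts of APC in DMSO and 100 nM were practically equal and 50 nM was slightly lower, with values on the log2 scale of -0.10 at 50 nM (interval -0.22 to 0.02) and -0.05 at 100 nM (interval -0.17 to 0.07). Its paralog APC2 had 42 to 51 counts.

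CTNNB1 encodes β-catenin (Entrez 1499, chromosome 3 from 41240942 to 41281939, plus strand) and had 4303 counts in DMSO, 4154 at 50 nM and 4349 at 100 nM. Its level was 97.0, 96.4 and 95.9 TPM, the narrowest range, relative to its level, among the 6 core components. The log2 fold change was -0.02 at 50 nM (interval -0.08 to 0.05) and -0.04 at 100 nM (interval -0.10 to 0.02), and neither passed the adjusted p. JUP, which encodes γ-catenin, the nearest relative of β-catenin, had 1 count in DMSO and 0 in the other libraries.

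The nuclear partners were unequally expressed. TCF7 (Entrez 6932, chromosome 5 from 133450402 to 133483920, plus strand), which encodes the T cell factor TCF1, had 0 counts in all 3 libraries. LEF1 (Entrez 51176, chromosome 4 from 108968701 to 109090112, minus strand) had 1 count with 50 nM and 0 in the other libraries. The limit that a count of 0 allows is 3 counts. It corresponds to at most 0.0618 TPM for TCF7 in any library and to 0.0609 TPM for LEF1 in DMSO. A fall could not be detected from such counts. A rise to more counts could, as HBB, with 0 counts in DMSO and 16 at 50 nM, passed the adjusted p. The other TCF genes were low as well, with 32, 19 and 21 counts for TCF7L2 and 3, 2 and 5 counts for TCF7L1. TCF7L2 did not pass at 100 nM, at -0.65 on the log2 scale (interval -1.53 to 0.17). The antisense gene LEF1-AS1, which shares 279 exon bases with LEF1, had 0 counts.

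PYGO2 encodes Pygopus 2, a reader of histone methylation that is tied to β-catenin by BCL9 (Entrez 90780, chromosome 1 from 154929502 to 154934258, minus strand). It had 792 counts in DMSO, 886 at 50 nM and 809 at 100 nM, with the 50 nM library alone standing higher. The log2 fold change was 0.20 at 50 nM (interval 0.06 to 0.34; exact binomial test, adjusted p = 0.0245) and -0.03 at 100 nM (interval -0.17 to 0.12). From 50 nM to 100 nM it fell by 0.22 on the log2 scale (interval -0.36 to -0.08; exact binomial test, adjusted p = 0.0138). Neither difference passed with a coefficient of 0.1. Its paralog PYGO1 had 3 to 7 counts, and PYGO2 took 98.1% to 99.1% of the summed level of the pair.

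The 6 core components lay between -0.05 and 0.12 on the log2 scale at 100 nM and between -0.10 and 0.20 at 50 nM. Their counting intervals allowed at most a 1.16-fold difference at 100 nM and a 1.26-fold difference at 50 nM in either direction. Genes of at least the same depth had a median absolute difference, on the log2 scale, of 0.14 at 100 nM and 0.09 at 50 nM, and that of the 6 genes was 0.05 and 0.07. Of these deep genes, 43.5% lay within the largest absolute value of the 6 at 100 nM and 81.7% at 50 nM. The position of the 8 tested genes among all genes is shown in the plot of change against mean count.

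**Figure D3:**
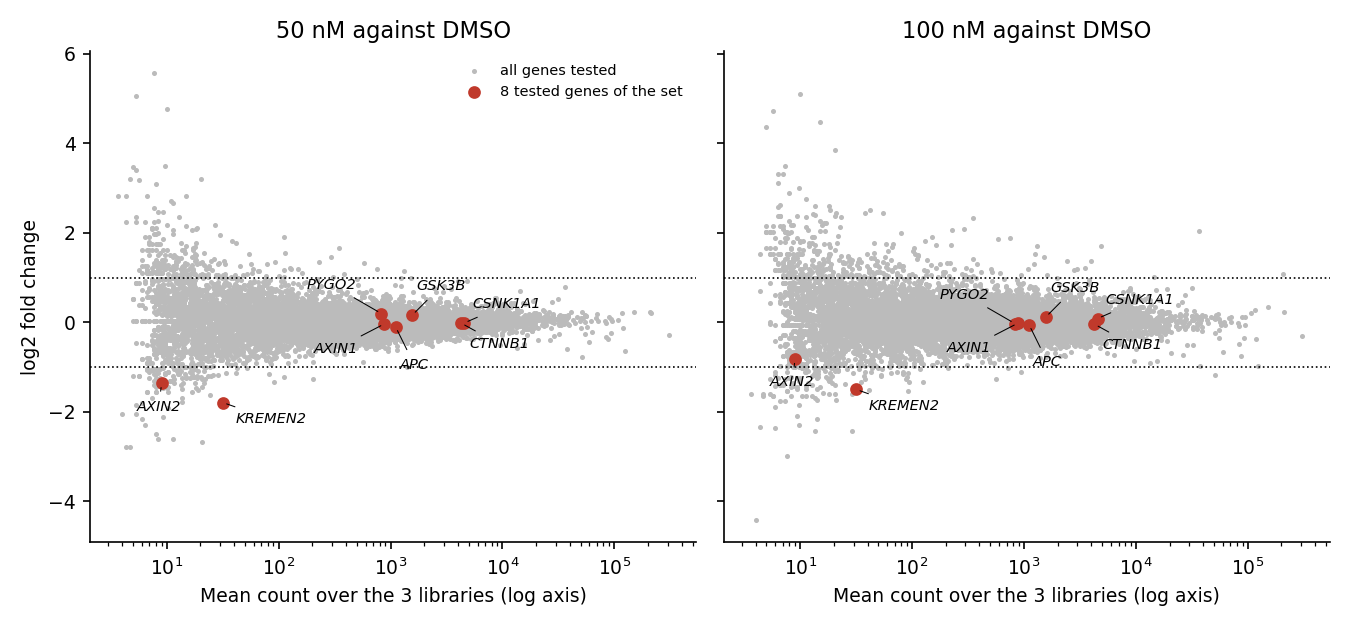
Log2 fold change against the mean count over the 3 libraries (log axis) for 50 nM (left) and 100 nM (right) against DMSO, with 1 grey point per gene for the 12879 genes tested. Red points are the 8 tested genes of the set and dotted lines mark 2-fold. The 6 core components lie inside the cloud of deeply counted genes and KREMEN2 at its lower edge.

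KREMEN2 encodes a Dickkopf receptor that removes LRP6 from the cell surface (Entrez 79412, chromosome 16 from 3014217 to 3018381, plus strand). Its counts were 58 in DMSO, 16 at 50 nM and 21 at 100 nM, so that both pyrvinium libraries lay well below DMSO and close to each other. The log2 fold change was -1.79 at 50 nM (interval -2.72 to -1.0; exact binomial test, adjusted p = 1.85e-05). At 100 nM it was -1.5 (interval -2.32 to -0.78; exact binomial test, adjusted p = 8.39e-05). The share of all genes called lower at 2-fold was 0.256% at 50 nM and 0.474% at 100 nM. Among the 1188 genes with a mean of 20 to 60 counts, the range that holds KREMEN2, it was 1.35% at 50 nM and 2.1% at 100 nM. From 50 nM to 100 nM the log2 fold change of KREMEN2 was 0.29 (interval -0.71 to 1.34), which did not pass. In bulk RNA, fewer cells that express a gene and less of its RNA per cell cannot be told apart. KREMEN2 was still called at both doses with a coefficient of 0.1, and at neither with one of 0.2.

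For the paralog KREMEN1 the counts were 100 with DMSO, 57 with 50 nM and 86 with 100 nM. It fell at 50 nM by 0.77 on the log2 scale (exact binomial test, adjusted p = 0.00693), and at 100 nM the log2 fold change was -0.27 (interval -0.71 to 0.16). Of the genes within 50000 bases of KREMEN2, chosen after its values were seen, PAQR4 lies 961 bases beyond its end on the same strand. PAQR4 had 986 counts in DMSO, 639 at 50 nM and 578 at 100 nM, with log2 fold changes of -0.59 and -0.83, both past the adjusted p. PKMYT1, the next gene on the opposite strand, had 1311, 1063 and 1075 counts, with log2 fold changes of -0.27 and -0.34, again both past it. The gene FLYWCH1, 13008 bases before KREMEN2, had 581, 566 and 568 counts and did not pass. With a coefficient of 0.1, PAQR4 at 100 nM still passed, and KREMEN1 at 50 nM, PAQR4 at 50 nM and PKMYT1 did not. In the count files KREMEN2 overlaps no other gene, whereas the spans of PAQR4 and PKMYT1 overlap on opposite strands, so the split of reads between these neighbours is uncertain.

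AXIN2 is the best known feedback target of β-catenin and encodes a second scaffold (Entrez 8313, chromosome 17 from 63524681 to 63557740, minus strand). It had 14 counts in DMSO, 5 at 50 nM and 8 at 100 nM, which is 0.277, 0.102 and 0.155 TPM. The DMSO library was the highest, but the intervals were wide, with log2 fold changes of -1.37 at 50 nM (interval -3.28 to 0.10) and -0.82 at 100 nM (interval -2.32 to 0.49). Neither passed, with adjusted p of 0.176 and 0.368 in the exact binomial test. Differences of this size in AXIN2 could not be told from counting error at this depth.

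Other target genes of β-catenin ranged from silent to abundant in these cells. Of 26 target genes, a list that includes AXIN2, LEF1 and TCF7 and was written from general knowledge, 15 passed the count filter. DKK1, SP5, LGR5, RNF43 and APCDD1 had 0 counts in all libraries. The binding motif of TCF/LEF proteins was searched as CTTTGAT and CTTTGAA on both strands. It was present in 6.86% of the 35116 promoter windows of the RefSeq table (GRCh38.p14). These windows are short and of equal length, and reach further before each start site than after it. Sites outside them were not searched. The motif was found in 4 of the 18 promoters held there for other target genes, and in 0 of the 11 promoters held for CSNK1A1, CTNNB1, AXIN1, APC, GSK3B, TCF7, LEF1 and PYGO2. No promoter was held there for AXIN2, KREMEN2, MYC, CCND1, ZNRF3, NOTUM, NKD1, LGR5, ASCL2, FOSL1 or BIRC5, so these genes were not searched. A match is only a description of the letters. The 4 windows, all before the start site, are shown because they hold the letters that TCF/LEF proteins read, with the motif or its reverse complement in capitals, 5′ to 3′ on the gene's strand. They were chosen after the search.
SP5, chr2:170715179-170715269, plus strand: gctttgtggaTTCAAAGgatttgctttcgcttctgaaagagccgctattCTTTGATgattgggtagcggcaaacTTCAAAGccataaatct
DKK1, chr10:52314176-52314202, plus strand: cctcccagcgCTTTGAAatcccatccc
FGF18, chr5:171419463-171419489, plus strand: gcagggccgcCTTTGATgtgggctggg
MMP7, chr11:102530840-102530951, minus strand: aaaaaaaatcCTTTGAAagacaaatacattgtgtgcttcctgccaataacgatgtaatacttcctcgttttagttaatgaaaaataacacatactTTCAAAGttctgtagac

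SP5 has 3 matches in this window and MMP7 has 2, and the genes had 0 counts and at most 1 count per library. FGF18 had 1 to 2 counts, so none of the 4 genes with a match was expressed to a testable level. Among the 15 tested target genes, 4 were higher and 3 lower past the adjusted p at 100 nM, against 21.1% and 22.0% of all genes. The list's median log2 fold change was -0.02, beside -0.002 over all genes tested. JUN, an AP-1 transcription factor gene that responds to many stimuli, was the only one of the 15 called higher at 2-fold, against 1.72% of all genes. The counts of JUN were 46 with DMSO, 87 with 50 nM and 116 with 100 nM, and its log2 fold change was 1.27 at 100 nM (interval 0.77 to 1.80). CCND1, which encodes cyclin D1, went from 91 counts to 52 and 55, a log2 fold change of -0.78 at 100 nM (interval -1.29 to -0.28). The most abundant genes of the list were MYC, at 750, 1029 and 1164 TPM, and NKD2, a Dishevelled antagonist, at 141, 158 and 181 TPM. Both passed the adjusted p at both doses and stayed below 2-fold, but with a coefficient of 0.1 neither passed at either dose. Of the 15 target genes JUN alone then passed at 100 nM and none at 50 nM.

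Several receptors of the pathway were lower with pyrvinium, none of them by 2-fold. Of 16 receptor and co-receptor genes 9 were tested, and at 100 nM 6 of the 9 were lower past the adjusted p and none higher, against 22.0% lower over all genes. Their median log2 fold change was -0.42. The co-receptor LRP5 went from 729 counts to 612 and 621 (-0.29 on the log2 scale at 100 nM), and its relative LRP6 had 85, 82 and 66 counts and did not pass. RYK, a Wnt-binding receptor without kinase activity and the most abundant of the group, went from 889 counts to 657 and 667, at -0.47 on the log2 scale (interval -0.62 to -0.32). The Frizzled gene FZD5 went from 251 counts to 200 and 144, at -0.86 on the same scale (interval -1.16 to -0.56), and FZD8 was at -0.64. FZD1 and FZD3 fell by 0.53 and 0.35 on the log2 scale, and all these receptor values are for 100 nM. At 50 nM 4 of the 9, FZD2, FZD3, LRP5 and RYK, passed as lower, against 13.9% of all genes, and none of the 4 reached 2-fold. FZD1, FZD5 and FZD8 did not pass at 50 nM, and FZD2 did not pass at 100 nM. FZD7, with 8, 14 and 12 counts, was the 1 gene above DMSO at both doses and did not pass. With a coefficient of 0.1, 1 of the 9, FZD5, passed at 100 nM and none at 50 nM. The groups of the pathway are set side by side in the plot of pathway genes by role.

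**Figure D4:**
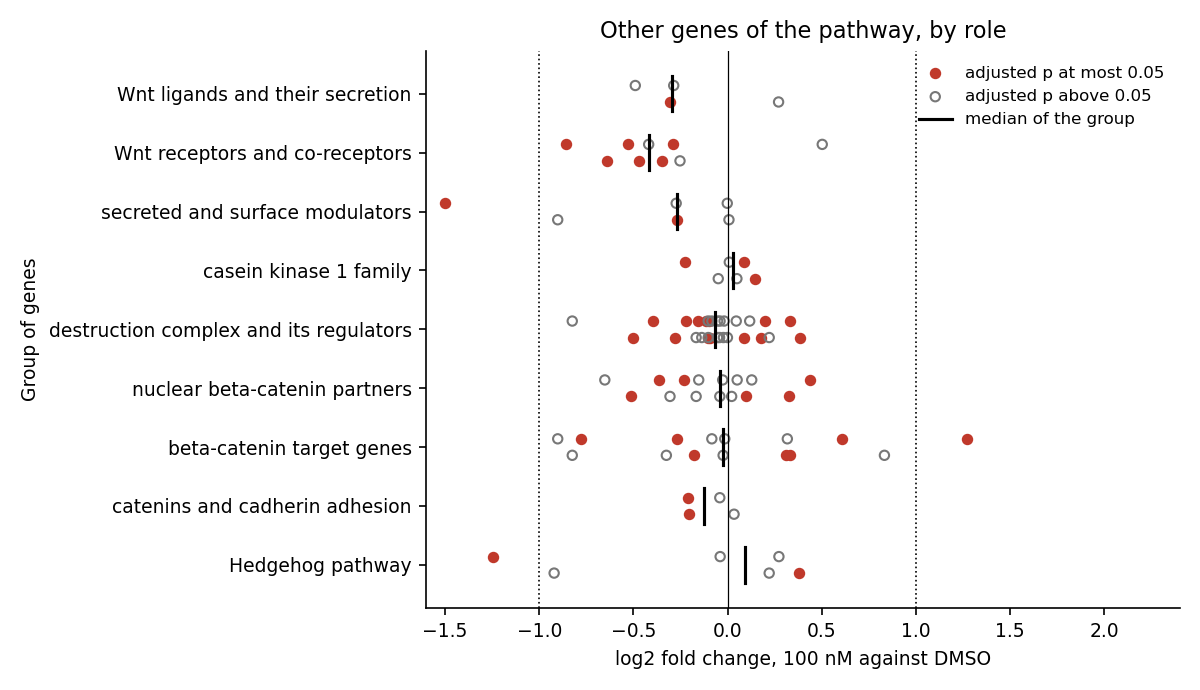
Log2 fold change at 100 nM against DMSO for the tested genes of 9 groups of pathway genes, 1 point per gene, with filled points for an adjusted p of at most 0.05 in the exact binomial test and a black bar at the group's median. Dotted lines mark 2-fold. A gene in several groups is drawn in each. The receptor group has its median at -0.42, and KREMEN2 is the lowest point of the modulators.

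Few ligands were expressed. Of 21 genes for Wnt ligands and their secretion 4 were tested, and 1 of the 4 was lower past the adjusted p at 100 nM, against 22.0% of all genes. This was WNT10B, which went from 603 counts to 491 and 508 (-0.30 on the log2 scale) and did not pass with a coefficient of 0.1. WNT6, the next in level, had 188, 170 and 236 counts and did not pass. PORCN, the acyltransferase that Wnt ligands need for secretion, had 40 to 47 counts and WLS, their carrier, had 0. Of 25 secreted and surface modulators, which include KREMEN2, 6 were tested and 2 were lower past the adjusted p at 100 nM, against 22.0% of all genes. Beside KREMEN2 this was ZNRF3, a ligase that removes Frizzled receptors, which went from 678 counts to 578 and 586 (-0.27 on the log2 scale) and did not pass with a coefficient of 0.1. LGR4, an R-spondin receptor, had 103, 99 and 107 counts. The Dickkopf genes DKK1, DKK3 and DKK4 had 0 counts, and DKK2 had 19 to 23.

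Of 31 genes of the destruction complex and its regulators, which include CSNK1A1, GSK3B, APC, AXIN1 and AXIN2, 30 were tested. At 100 nM 5 were higher and 9 lower past the adjusted p, against 21.1% and 22.0% of all genes, none at 2-fold, with a median log2 fold change of -0.07. The ubiquitin ligase subunit gene RBX1 and the phosphatase scaffold gene PPP2R1A were the most abundant, at means of 254 and 239 TPM. Their log2 fold changes were -0.00 and -0.10. Of the genes that passed, PPP2R1B fell furthest, at -0.50 on the log2 scale, and TNKS rose furthest, at 0.38. Of 20 nuclear partners of β-catenin 15 were tested, and 3 were higher and 3 lower past the adjusted p, against the same shares of all genes, none at 2-fold. HDAC1, the most abundant, fell by 0.23 on the log2 scale. With a coefficient of 0.1, none of either list passed at 100 nM.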

How the data were processed

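The authors aligned paired reads of 75 bases from strand-specific mRNA libraries to hg19 using Rsubread. The deposited values are unnormalized whole-number counts, 1 per gene in each of the 3 libraries. The strand setting of the counting is not given in the sources used here. A deposited table of the authors' own EBSeq comparisons (posterior probabilities, fold changes and condition means) was not used. Entrez identifiers were paired with RefSeq gene symbols (23696 of 25702 matched), and coordinates are those of the count files. Libraries were scaled with TMM in edgeR 4.0.16 (R 4.3.3). Counts of each pair of libraries were compared over 12879 genes by a two-sided exact binomial test (scipy 1.17.1) with Benjamini-Hochberg adjustment. Calls needed an adjusted p no higher than 0.05 and a 2-fold difference, the fold threshold of the study's methods. Replicate spread does not enter this test, so p-values and intervals (95%, Clopper-Pearson) reflect only counting error. For log2 fold changes 0.5 counts were added. TPM was computed from the counts and the gene lengths in the files. A count of 3 is 1.25e-05% to 1.32e-05% of a library.

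The genes, lists and rules were chosen with earlier results of these data known. Named genes are the 10 genes, their close paralogs, the casein kinase 1 family, and in each list the 2 most abundant genes and those called at 2-fold with at least 50 counts. Genes named beyond this, among them the receptors that passed, the silent targets and the markers, were chosen after their values were seen. The test was checked on simulated counts that held counting error alone, with changes set in genes averaging at least 50 counts. For 100 nM against DMSO, where all changes were set past 2-fold, it called 200 of 200 changed genes and 0 unchanged ones. Between 100 nM and 50 nM it called 91 of the 100 genes set past 2-fold. The check does not cover recovery of changes below 2-fold or in genes with fewer counts. It also does not cover a spread between replicates. Alternatives tried were scaling by total counts, by DESeq2 1.42.0 size factors or by TMM with mitochondrially encoded genes left out, other filters, fold thresholds and added counts, an assumed biological coefficient of variation in edgeR's exact test, and a quasi-likelihood dose trend.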

Additional observations from a re-analysis of the deposited data

How the results depend on the processing

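KREMEN2 was the 1 gene of the 8 called at 100 nM and at 50 nM when scaled by total counts, by DESeq2 size factors or by TMM with mitochondrially encoded genes left out, under both other count filters, a fold threshold of 1.5 and an assumed biological coefficient of variation of 0.1. The quasi-likelihood dose trend over the 3 libraries called 1 of the 8 genes, as lower. It has 1 residual degree of freedom, which measures misfit to a line and not a spread between replicates. With an assumed coefficient of 0.2 or 0.4, 0 of the 8 genes were called at either dose, and the edgeR adjusted p of KREMEN2 was 1. Without a fold threshold, 2 genes passed at 100 nM, 3 at 50 nM and 2 between the doses. Every log2 fold change of the 8 genes kept its direction under each alternative. By adjusted p and 2-fold together, the calls that changed were those of KREMEN2 with a coefficient of 0.2 or 0.4. With 5 counts added, the log2 fold change of AXIN2 at 50 nM moved inside 2-fold, to -0.90, and that of KREMEN2 was -1.56 at 50 nM and -1.33 at 100 nM. The scalings and filters moved a pair of libraries by at most 0.0054 on the log2 scale. With an assumed coefficient of 0.1, the edgeR adjusted p was 0.968 for CSNK1A1 at 100 nM, and it was 1 for GSK3B and PYGO2 at 50 nM and for CSNK1A1 and PYGO2 between the doses, so these small differences no longer passed. GSK3B at 100 nM passed when at least 10 counts in every library were required (exact binomial test, adjusted p = 0.045). Across all genes tested, the coefficient of 0.1 left 176 higher and 68 lower past the adjusted p at 100 nM, of 2715 and 2835, and among the listed pathway genes named here it left FZD5, JUN, KREMEN2 and the neighbour PAQR4 at 100 nM and KREMEN2 alone at 50 nM. With an assumed coefficient of 0.2 or 0.4, JUN was not called at 100 nM. The number of genes taken as expressed was 6 at 1 TPM or 1 CPM in all libraries, 7 at 0.5 TPM and 8 by at least 10 counts in 1 library. Depth limits AXIN2, LEF1 and TCF7, and the spread between replicates is unknown. No paired analysis was possible because each condition has 1 library.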

Other observations

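The Hedgehog pathway, another pathway in which CK1α acts, was weakly expressed. Of 15 genes 6 were tested, and the ligand genes SHH, IHH and DHH had 0 to 1 counts. PTCH1, the receptor gene and a target of the pathway, went from 389 counts with DMSO to 452 with 50 nM and 526 with 100 nM, and rose with log2 fold changes of 0.25 and 0.38 (exact binomial test, adjusted p = 0.0469 and 0.000386). At 50 nM this did not pass when scaled by total counts (0.0508) or with a filter of 1 count (0.0692), and with a biological coefficient of variation of 0.1 assumed in edgeR's exact test it passed at neither dose. The target gene GLI1 had 23, 19 and 29 counts and did not pass. SMO, GLI2 and GLI3, other genes of the list, had at most 1 count per library. GAS1, named after its values were seen, had 28, 16 and 12 counts and a log2 fold change of -1.24 at 100 nM (interval -2.39 to -0.26), which lost its call under the same assumption. SUFU, the most abundant gene of the list and an inhibitor of GLI proteins, had 334, 345 and 338 counts.

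Of 12 catenin and cadherin genes 4 were tested. The cadherin genes CDH1 and CDH5 had 0 counts, and CDH2 and CDH3 had at most 2. CTNNA1, which encodes α-catenin, the partner of β-catenin at adherens junctions, had 1187, 1112 and 1068 counts and fell at 100 nM by 0.21 on the log2 scale (exact binomial test, adjusted p = 0.00215), which did not pass with the same coefficient assumed.

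Over 10834 candidate genes averaging 50 counts or more, the pair of log2 fold changes (50 nM and 100 nM against DMSO) nearest to that of KREMEN2 over the 3 libraries was that of RAB39A, at a distance of 0.54, followed by EGR1 at 0.77. RAB39A had 148, 57 and 66 counts, and EGR1, an immediate early transcription factor gene, had 313, 126 and 170. Both had their lowest count at 50 nM, as KREMEN2 did, although the step of KREMEN2 from 50 nM to 100 nM did not pass. KREMEN2 itself averaged fewer than 50 counts, so genes of its own depth were not among the candidates. NOC3L and TCHP were nearest to CSNK1A1 and FUCA2 and KNTC1 nearest to CTNNB1, at distances of at most 0.0024, among many genes with small differences.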
